A study of Mus musculus with 6 samples.

Results

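Interferon-stimulated antiviral genes were examined in colon intestinal epithelial cells (IECs) as a group of 39 genes, matched by symbol in a table of 55487 genes. Each symbol had 1 row, and all 39 genes passed the filter on low counts, among 14650 genes tested. The genes were taken in classes by what their products do: 5 IFIT genes, 6 OAS genes, 2 Mx genes, 6 RNA sensors, 4 genes of the ISG15 system, 3 STAT/IRF regulators and 13 other effectors. RNA sequencing (RNA-seq) had been performed on 3 libraries from Nsd2 f/f mice, whose floxed Nsd2 alleles are intact, and on 3 libraries from Nsd2 Vil-KO mice, which carry the same floxed alleles and Villin-Cre, a Cre recombinase driven by the Villin promoter in the intestinal epithelium. NSD2 is a methyltransferase that dimethylates histone H3 at lysine 36. All mice had received dextran sodium sulphate (DSS), a chemical used to damage the colon lining and induce colitis, so no untreated group was compared here. The study kept all mice on a C57BL/6J background. The labels give neither the age nor the sex of the mice, while the study's methods state that colitis was induced at 2 months of age. Cells other than epithelium keep Nsd2 in this model. Nothing in the labels says that the libraries of a genotype came from separate animals, so p-values measure the spread between these libraries, which may be technical in part. Xist and Y-linked counts, given below, differed within each genotype, so not all of its libraries came from the same animal.

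Type I and type III interferons bind receptors that signal through JAK kinases to a complex that contains STAT2 and IRF9 and binds the interferon-stimulated response element of its target genes. Genes that respond to interferon gamma often carry another element, the gamma-activated sequence. Among the targets are enzymes and RNA-binding proteins that limit viral replication, and intestinal epithelial cells are known to respond mainly to the type III interferons. In bulk RNA, fewer responding cells and less RNA per cell cannot be told apart.

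The promoters of some of these genes hold the letters of the interferon-stimulated response element. A promoter entry, covering 250 bases before to 50 bases after the transcription start (RefSeq, GRCm38.p6), was found for 29 of the 39 genes. The letters GAAANNGAAA, the core of the interferon-stimulated response element, were present on either strand in 15 of these 29 genes (51.7%), against 3.99% of 27025 genes with a promoter entry. The letters TTCNNNGAA, the gamma-activated sequence, were present in 6 of the 29 (20.7%), against 9.55%. Both motifs were searched on both strands, matches of one motif may overlap each other, and a match describes letters and not a bound site. The following stretches, all upstream of the start and written 5′ to 3′ in the direction of the gene, are shown because they belong to genes whose levels are described next, and capitals mark the response element.
Isg15, chr4:156200850-156200921, minus strand: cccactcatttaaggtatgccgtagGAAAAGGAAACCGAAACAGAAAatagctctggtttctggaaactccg
Ifit1, chr19:34640760-34640838, plus strand: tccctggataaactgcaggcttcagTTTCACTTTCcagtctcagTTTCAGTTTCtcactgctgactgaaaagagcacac
Ifit3, chr19:34583348-34583441, plus strand: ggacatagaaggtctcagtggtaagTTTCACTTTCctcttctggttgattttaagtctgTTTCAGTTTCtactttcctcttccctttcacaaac
Ifit3b, chr19:34607744-34607837, plus strand: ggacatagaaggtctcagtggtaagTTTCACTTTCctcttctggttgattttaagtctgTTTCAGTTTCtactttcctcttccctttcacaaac
Oas1a, chr5:120907526-120907570, minus strand: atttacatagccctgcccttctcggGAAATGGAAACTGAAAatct
Ddx60, chr8:61928009-61928086, plus strand: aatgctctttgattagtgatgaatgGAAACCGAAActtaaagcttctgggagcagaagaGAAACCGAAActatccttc
Rsad2, chr12:26456538-26456597, minus strand: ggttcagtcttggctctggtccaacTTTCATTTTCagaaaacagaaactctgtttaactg
Isg15 held 3 overlapping matches in a single block, and Ifit3 and Ifit3b carried the same stretch.

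The libraries held between 15439123 and 20350539 counted reads, so that 3 counts in 1 library were worth 0.146 to 0.242 CPM (counts scaled to library size). Nsd2 was lower in Nsd2 Vil-KO libraries, at 24.2, 10.4 and 20.8 CPM against 47.9, 51.2 and 24.6 CPM in Nsd2 f/f libraries, with a log2 fold change of -1.16 (SE 0.40), and it was not at 0 in any library. Among the libraries, Nsd2 f/f replicate 3 and Nsd2 Vil-KO replicate 2 stood apart from the other libraries. They held 4296 and 3684 Xist counts against 1 to 5 elsewhere, and 3 and 0 counts of 4 Y-linked genes against at least 3166. The mitochondrial share of counts was 19.6% in Nsd2 f/f replicate 3 and ranged from 5.51% to 9.13% elsewhere. Counts of members and classes past the criterion are given with and without these 2 libraries, and counts of lists only in part.

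All 39 genes had a lower mean in Nsd2 Vil-KO than in Nsd2 f/f libraries. Their median log2 fold change was -1.11, within a range from -4.18 to -0.10. A negative log2 fold change was found in 49.8% of all tested genes, whose median was 0.00. The screening criterion was a fold change above 1.2 with an unadjusted p below 0.05. The study's results give these limits without saying whether the p was adjusted, and its methods name an adjusted p below 0.05. The genes that passed the unadjusted criterion were Ifit1, Ifit3, Ifit3b, Isg15, Isg20, Rtp4 and Ifi27l2a. These 7 genes, 17.9% of the 39, compare with 1.45% of all tested genes that passed in the same direction and 2.96% in either direction. No member was higher past the criterion. At an adjusted p below 0.05 by edgeR's quasi-likelihood test, 0 of the 39 genes and 0.0% of all tested genes were called, with 434 genes at an unadjusted p below 0.05. DESeq2 called 4 and limma-voom 0 of all tested genes, none of them a member. In the edgeR fit every member had an adjusted p of 0.999.

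The 39 genes followed much the same order over the libraries. Nsd2 f/f replicate 2 was the highest library for 39 of 39 genes, and for 9.3% of all tested genes. Second, for 35 of them, was Nsd2 f/f replicate 1. The lowest library was Nsd2 Vil-KO replicate 2 for 27 genes and Nsd2 f/f replicate 3 for 12, that is, one of the pair with Xist for every member and for 54.7% of all tested genes. Isg20 alone did not overlap between genotypes, 2.56% of the members against 4.7% of all tested genes that were lower without overlap, and with scaling by library size only it overlapped too. The median over the members of log2(CPM + 0.5) relative to each gene's own mean was 0.64, 1.85 and -1.04 in Nsd2 f/f replicates 1 to 3, and -0.04, -1.52 and -0.04 in Nsd2 Vil-KO replicates 1 to 3. Over all tested genes the same medians lay between -0.01 and 0.01. The highest library exceeded the lowest by a median of 11.5-fold over the members, from 2.26-fold in Ifih1 to 484-fold in Ifi27l2a, against 2.17-fold over all tested genes.

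**Figure D1:**
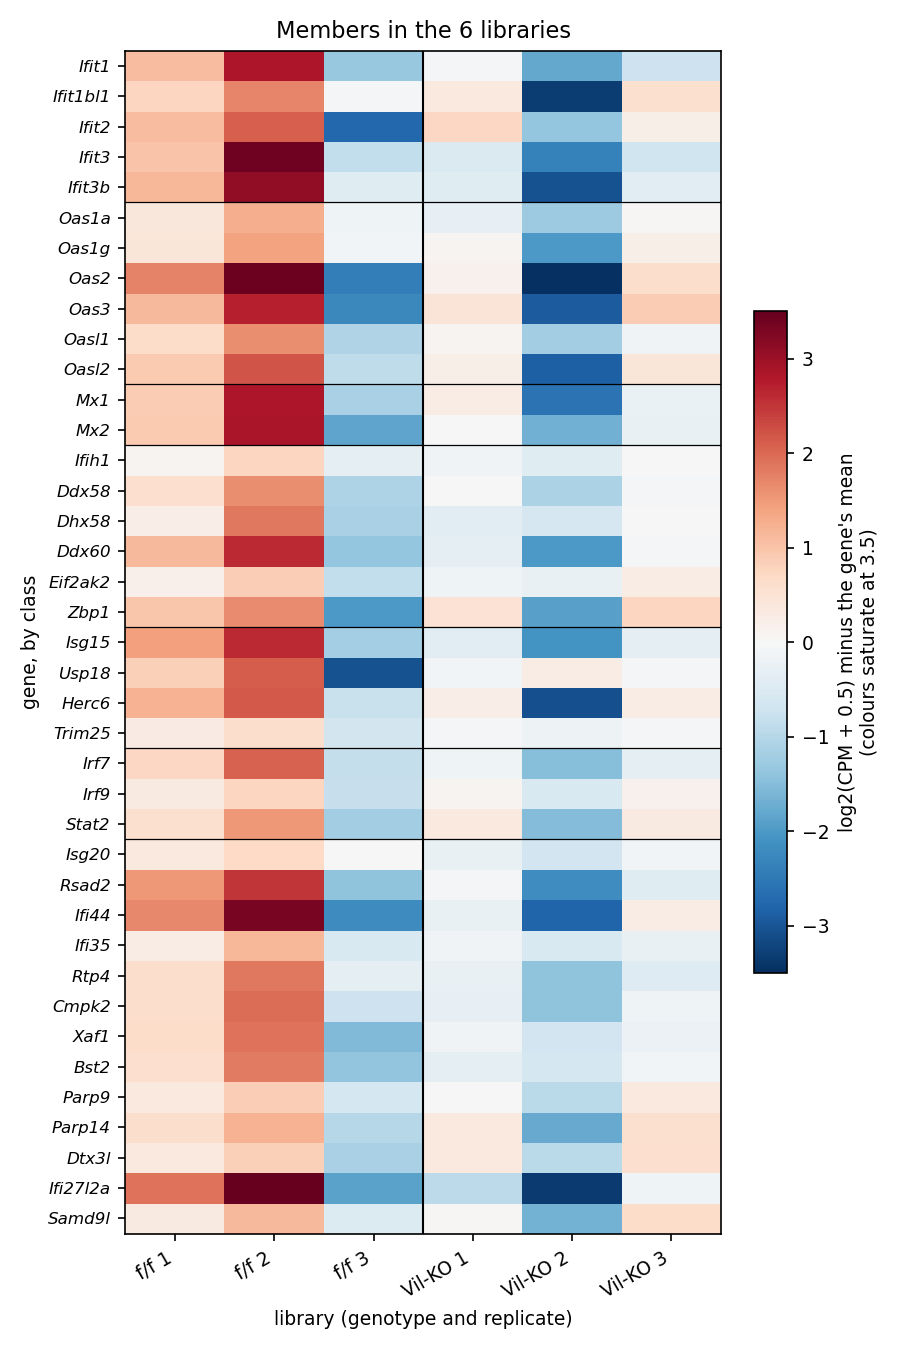
Heat map of log2(CPM + 0.5) minus each gene's mean over the 6 libraries, with genes in rows by class and libraries in columns, Nsd2 f/f to the left of the vertical line. Nsd2 f/f replicate 2 is red in all 39 rows, and Nsd2 f/f replicate 3 lies below the gene's mean in all of them.

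The call of members depended on single libraries. Without Nsd2 f/f replicate 2, 0 of the 39 genes were lower past the criterion, against 1.09% of all tested genes. Without Nsd2 Vil-KO replicate 2 there were 0 as well, against 2.5% of all tested genes. Leaving out Nsd2 f/f replicate 3 gave 26 members, against 1.91% of all tested genes. There were 2 members without Nsd2 Vil-KO replicate 1 (1.39% of all tested genes), 4 without Nsd2 Vil-KO replicate 3 (0.853%) and 6 without Nsd2 f/f replicate 1 (1.64%). Without Nsd2 f/f replicate 2 the median log2 fold change was -0.47.

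In the 4 libraries without Xist, all 39 genes again had a negative log2 fold change, with a median of -1.42 against 0.00 for 15030 tested genes. In this set 13 genes (33.3%) were lower past the criterion, against 5.19% of all tested genes. Of the 7 genes that passed with 6 libraries, 4 also passed here: Ifit3b, Isg15, Isg20 and Rtp4. Both Nsd2 Vil-KO libraries lay below both Nsd2 f/f libraries in 35 of the 39 genes, against 21.7% of all tested genes. By class, the 13 genes past the criterion were 1 of 5 IFIT genes, 1 of 6 OAS genes, 0 of 2 Mx genes, 2 of 6 RNA sensors, 4 of 4 genes of the ISG15 system, 1 of 3 STAT/IRF regulators and 4 of 13 other effectors. They were Ifit3b, Oasl1, Ddx58, Zbp1, Isg15, Usp18, Herc6, Trim25, Irf9, Isg20, Rsad2, Ifi35 and Rtp4. The genes that overlapped here were Eif2ak2, Parp9, Dtx3l and Samd9l. The adjusted p of the members ranged from 0.28 to 0.816 in edgeR's quasi-likelihood test, and 0.0% of all tested genes had an adjusted p below 0.05. Between the 2 libraries with Xist, Nsd2 Vil-KO replicate 2 was lower than Nsd2 f/f replicate 3 for 27 genes and higher for 12, with a median log2 ratio of -0.68 and a range from -4.86 to 3.55. This pair is 1 library against 1, so its ratio has no replicate check. The genotype effect differed by the presence of Xist at an unadjusted p below 0.05 in 4 members (10.3%), Ifit1bl1, Usp18, Trim25 and Irf9, against 31.8% of all tested genes.

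**Figure D2:**
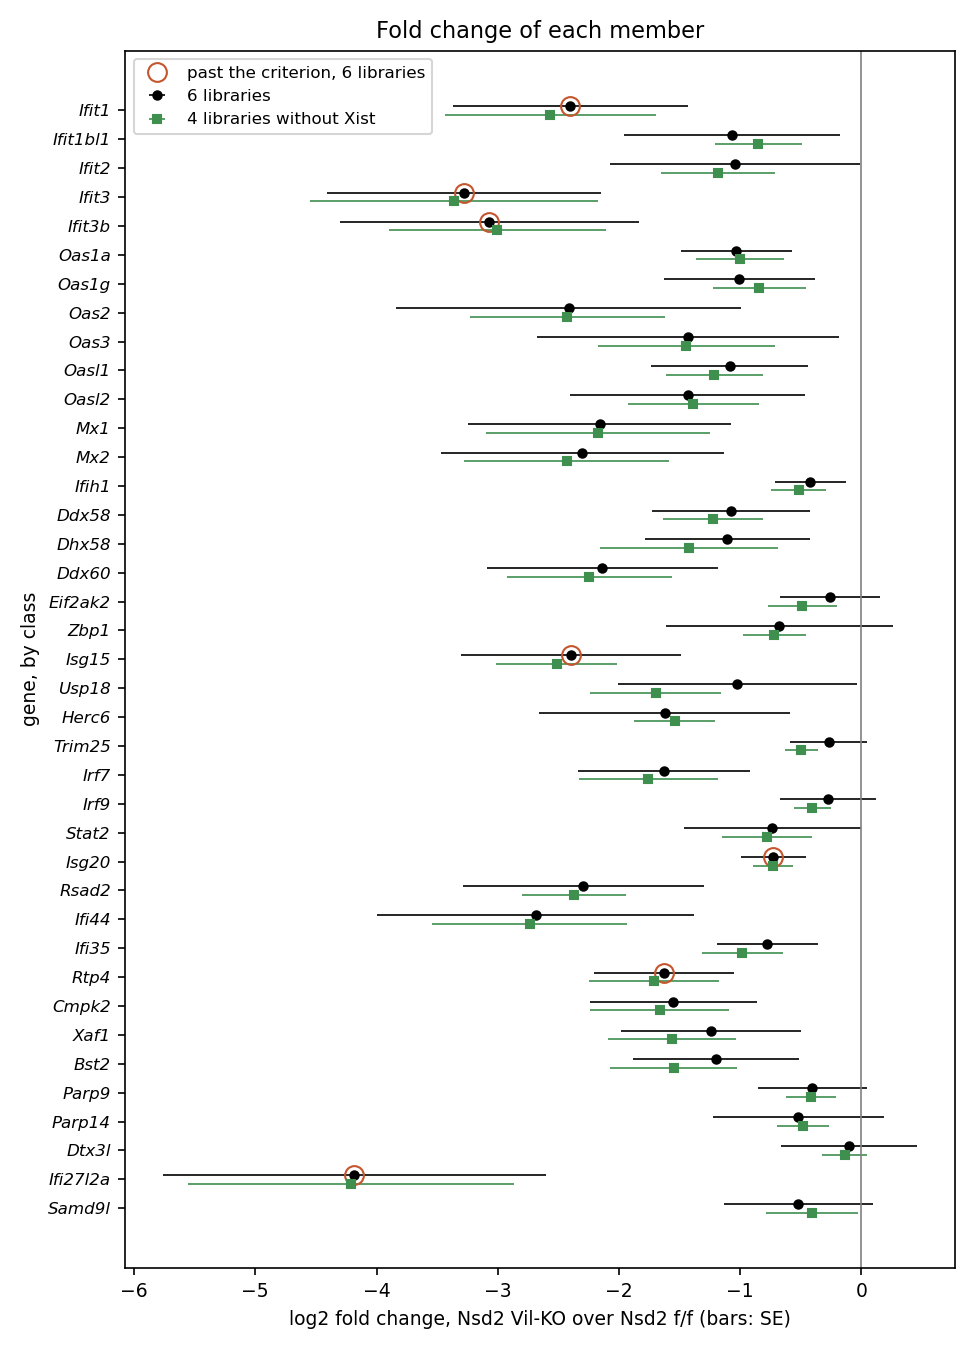
Log2 fold change of Nsd2 Vil-KO over Nsd2 f/f for each of the 39 genes, with bars for the SE, from all 6 libraries (circles) and from the 4 libraries without Xist (squares), and rings around the 7 genes past the criterion. All points lie left of 0, and the median SE was 0.73 with 6 libraries and 0.47 with 4.

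The IFIT genes, whose products bind viral RNA that lacks host cap methylation, had the lowest class median, a log2 fold change of -2.40, with 3 of 5 past the criterion. Ifit1 (chr19:34640871-34650009, GRCm38) was at 68.8, 230 and 12.4 CPM in Nsd2 f/f and at 30.7, 8.93 and 19.2 CPM in Nsd2 Vil-KO libraries. Its mean was 104 ± 113 CPM in Nsd2 f/f and 19.6 ± 10.9 CPM in Nsd2 Vil-KO (SD, n = 3 each), 5.29-fold lower by the fit. The library Nsd2 f/f replicate 3 lay within the range of the Nsd2 Vil-KO libraries, so the genotypes overlapped. Ifit3 was at 16.9, 91.9 and 4.28 CPM against 5.61, 1.17 and 4.85 CPM, and had the largest change of the class, with a log2 fold change of -3.28 (SE 1.13). The third gene past the criterion, Ifit3b, had a log2 fold change of -3.07 (SE 1.23). Ifit3 and Ifit3b are near copies: 31.7% of the 100-base stretches of Ifit3 exons and 27.4% of those of Ifit3b are shared with other genes, so their reads may be split uncertainly. Ifit1bl1, an Ifit1-like gene, had the highest level of the class per kilobase of exon, at 297 and 141 CPM per kilobase. Its values were 575, 1104 and 331 CPM in Nsd2 f/f and 428, 33.6 and 497 CPM in Nsd2 Vil-KO libraries. Only Nsd2 Vil-KO replicate 2 was far below the others, and the log2 fold change was -1.07 (SE 0.89). Ifit2 had a log2 fold change of -1.04 (SE 1.03).

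The OAS genes encode 2′-5′ oligoadenylate synthetases and related proteins, which sense double-stranded RNA and activate RNase L. Their class median was -1.26, and none of the 6 passed the criterion with all libraries. Oas2 (chr5:120730333-120749853) was at 85.7, 281 and 4.36 CPM in Nsd2 f/f and at 28.6, 1.78 and 39.2 CPM in Nsd2 Vil-KO libraries, a log2 fold change of -2.41 (SE 1.42). Both low values came from the libraries with Xist, one in each genotype. Oasl2, the OAS gene with the highest mean CPM, was at 211, 516 and 59.7 CPM against 127, 14.8 and 149 CPM. Its log2 fold change was -1.43 (SE 0.97), the same as that of Oas3 (SE 1.25). Oas1a was the highest of the class per kilobase of exon, at 82.4 and 40.2 CPM per kilobase, with a log2 fold change of -1.03 (SE 0.46). Oas1a and Oas1g are near copies too, with 40.9% and 31.3% of their 100-base stretches shared. Oas1g and Oasl1 had log2 fold changes of -1.01 and -1.09.

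The Mx genes belong to a family of dynamin-like GTPases that trap viral components. Whether these mice make working Mx proteins was not tested. Mx1 was at 28.8, 113 and 6.63 CPM in Nsd2 f/f and at 18.2, 2.11 and 12.8 CPM in Nsd2 Vil-KO libraries, and Mx2 was at 7.83, 31.3 and 0.727 CPM against 3.95, 0.888 and 3.22 CPM. In both genes Nsd2 f/f replicates 1 and 2 were above all other libraries. The log2 fold changes were -2.16 (SE 1.09) for Mx1 and -2.30 (SE 1.17) for Mx2, and neither passed the criterion. The annotation lists Mx2 as a polymorphic pseudogene.

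The RNA sensors had a class median of -0.88, and none of the 6 passed the criterion with all libraries. Ifih1 encodes MDA5 and Ddx58 encodes RIG-I, the helicases that recognise viral RNA in the cytosol. Ifih1 varied least of all members, from 71.3 to 161 CPM, with a log2 fold change of -0.42 (SE 0.29), and Ddx58 had a log2 fold change of -1.08 (SE 0.65). Ddx60, a helicase linked to RIG-I signalling, had the largest change of the class. It was at 59.3, 167 and 10.2 CPM in Nsd2 f/f and at 21.5, 6.27 and 26.1 CPM in Nsd2 Vil-KO libraries, with a log2 fold change of -2.14 (SE 0.95). Zbp1, a sensor of Z-form nucleic acid, had the highest mean CPM of the class, at 194, 314 and 24.2 CPM against 139, 26.1 and 168 CPM. Its 2 lowest values came from the libraries with Xist, and the log2 fold change was -0.68 (SE 0.94). Dhx58, which encodes LGP2, and Eif2ak2, which encodes the RNA-activated kinase PKR, had log2 fold changes of -1.11 (SE 0.68) and -0.26 (SE 0.41).

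The ISG15 system, in which ISG15 is a ubiquitin-like modifier, had a class median of -1.32. Isg15 (chr4:156199424-156200818) was at 122, 275 and 19.4 CPM in Nsd2 f/f and at 33.9, 10.2 and 35.0 CPM in Nsd2 Vil-KO libraries. Its mean was 139 ± 129 CPM in Nsd2 f/f and 26.4 ± 14.0 CPM in Nsd2 Vil-KO (SD, n = 3 each). The fitted log2 fold change was -2.40 (SE 0.91), 5.26-fold lower, and in the 4 libraries without Xist it was -2.52 (SE 0.50). Isg15 passed the criterion in both sets, although Nsd2 f/f replicate 3 lay below 2 of the Nsd2 Vil-KO libraries. Usp18, the protease that removes ISG15 and restrains the receptor, was at 40.8, 100 and 2.34 CPM against 21.2, 27.5 and 21.9 CPM. Here the low library was Nsd2 f/f replicate 3 alone, and the log2 fold change was -1.02 (SE 0.99). Herc6, an ISG15 ligase in mice, had a log2 fold change of -1.62 (SE 1.04). Trim25, a ubiquitin ligase that acts on RIG-I and had the highest mean CPM of the class, was at 174, 222 and 92.3 CPM against 140, 126 and 139 CPM, with a log2 fold change of -0.27 (SE 0.32).

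The STAT/IRF regulators carry the interferon signal to the nucleus, and their class median was -0.74. Irf7, which amplifies type I interferon production, led the class by level and by change. It was at 252, 636 and 86.4 CPM in Nsd2 f/f and at 138, 54.5 and 122 CPM in Nsd2 Vil-KO libraries, with a log2 fold change of -1.63 (SE 0.71). Only Nsd2 f/f replicate 3 overlapped with the Nsd2 Vil-KO libraries. Stat2 and Irf9, whose products belong to the complex that binds the response element, had log2 fold changes of -0.74 (SE 0.73) and -0.28 (SE 0.40). None of the 3 genes passed the criterion with all libraries.

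The 13 other effectors had a class median of -1.20, with 3 past the criterion. Ifi27l2a, a small interferon-induced membrane protein, had the largest change of all members. It was at 33.1, 188 and 1.94 CPM in Nsd2 f/f and at 4.29, 0.388 and 7.56 CPM in Nsd2 Vil-KO libraries, with a log2 fold change of -4.18 (SE 1.58). The value in Nsd2 f/f replicate 2 was 5.69-fold above Nsd2 f/f replicate 1. Isg20, an exonuclease that degrades viral RNA, was at 29.0, 37.2 and 22.4 CPM against 18.7, 14.0 and 20.9 CPM. Every Nsd2 Vil-KO library was below every Nsd2 f/f library, and the log2 fold change was -0.73 (SE 0.26). Rtp4, a negative regulator of interferon signalling, was at 55.5, 132 and 29.1 CPM against 30.2, 13.3 and 26.5 CPM, with a log2 fold change of -1.63 (SE 0.58). The genotypes overlapped only through Nsd2 f/f replicate 3 and Nsd2 Vil-KO replicate 1.

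Parp14, an ADP-ribosyltransferase, had the highest mean CPM among the other effectors. It was at 196, 296 and 63.3 CPM in Nsd2 f/f and at 161, 37.2 and 189 CPM in Nsd2 Vil-KO libraries, with a log2 fold change of -0.52 (SE 0.71). Parp9 and Dtx3l, which act as a complex, had log2 fold changes of -0.41 and -0.10. Their exons overlap over 458 bases on opposite strands, and whether the counting used strand is not given in the sources used here. Ifi44 (-2.69, SE 1.31), Rsad2 (-2.29, SE 0.99), which encodes the antiviral enzyme viperin, and its neighbour Cmpk2 (-1.55, SE 0.69) had log2 fold changes below the class median without passing the criterion. Xaf1 and Bst2, which encodes the virion tether tetherin, had log2 fold changes of -1.24 and -1.20. The remaining values were -0.78 for Ifi35 and -0.52 for Samd9l.

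**Figure D3:**
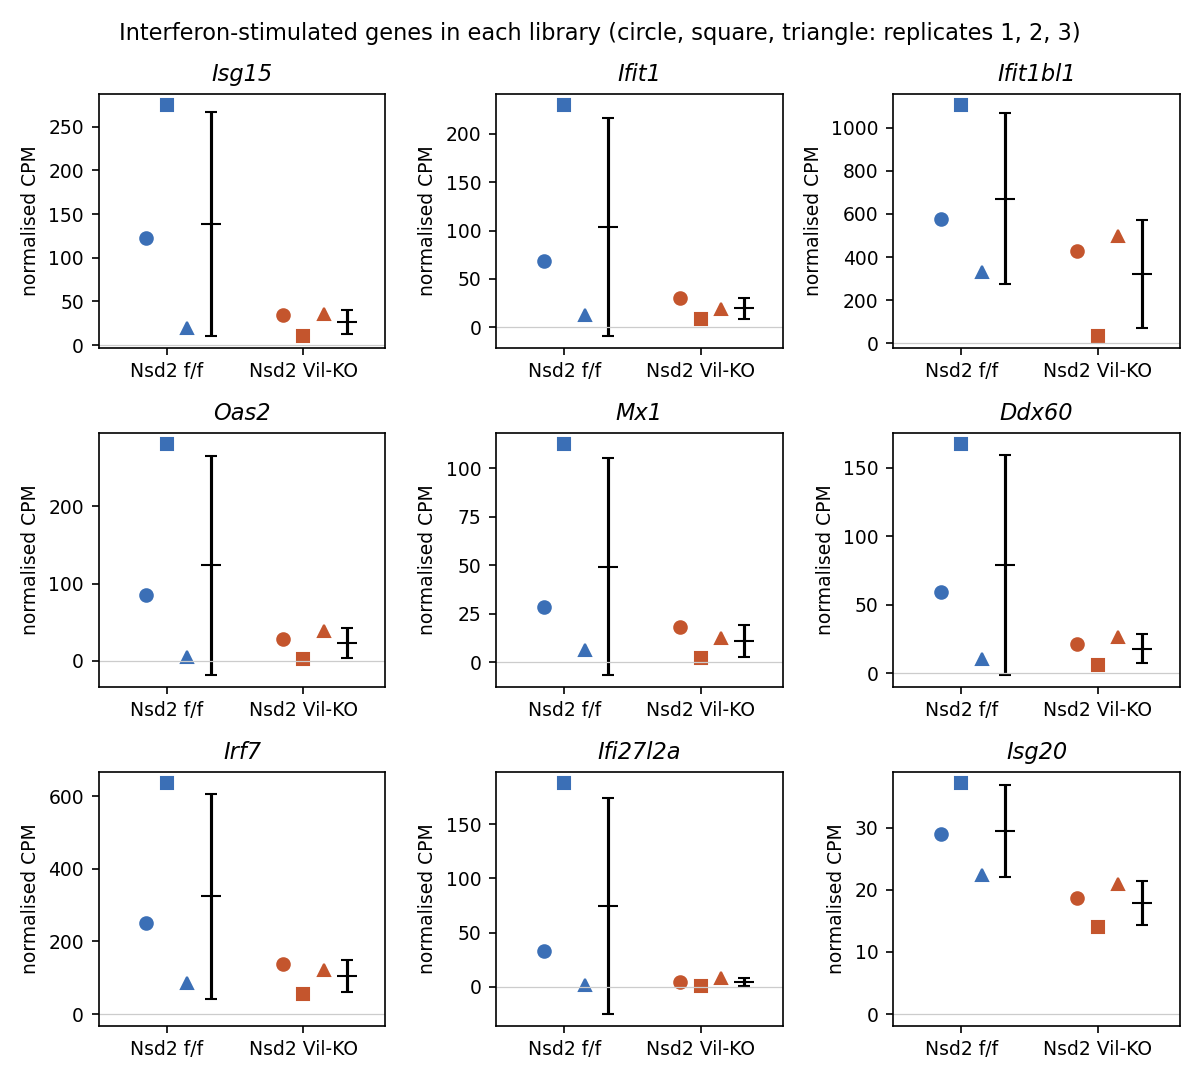
Normalised CPM of 9 members in each library, with circles, squares and triangles for replicates 1, 2 and 3, and the mean with the SD beside each genotype. Nsd2 f/f replicate 2 is the highest point in every panel, and Isg20 is the panel in which the genotypes do not overlap.

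Other parts of the interferon pathway were described from further lists. Of 21 interferon ligand genes, 17 had 0 counts in all 6 libraries, Ifnb1 among them. Ifng alone passed the filter on low counts, with 97, 9 and 0 counts in Nsd2 f/f and 15, 0 and 6 in Nsd2 Vil-KO libraries. Without Nsd2 f/f replicate 1 the log2 fold change of Ifng was 0.31, against -2.35 with all libraries. Of 9 receptors and JAKs, 3 had a negative log2 fold change. Higher past the criterion were 221 of 14650 tested genes, and 1 of these 9. This was Ifnlr1, the subunit particular to the type III interferon receptor, at 20.1, 21.2 and 14.7 CPM in Nsd2 f/f and at 29.7, 24.0 and 27.8 CPM in Nsd2 Vil-KO libraries. Every Nsd2 Vil-KO library was above every Nsd2 f/f library, with a log2 fold change of 0.54 (SE 0.22) and an adjusted p of 0.999 by edgeR. In the 4 libraries without Xist, Ifnlr1 (0.49, SE 0.13) and Ifngr1 (0.31, SE 0.11) were higher past the criterion. Over all 15030 genes tested there, 1636 passed in either direction.

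None of the 9 tested sensing adaptors and kinases or the 6 tested negative regulators passed the criterion, and their median log2 fold changes were -0.05 and -0.07. Of 35 other interferon-induced antiviral genes tested, 34 had a negative log2 fold change, with a median of -0.67, and 2 were lower past the criterion, against 1.45% of all tested genes. Nmi, which encodes a partner of STAT proteins, was at 39.6, 69.7 and 46.1 CPM in Nsd2 f/f and at 35.5, 24.5 and 37.3 CPM in Nsd2 Vil-KO libraries, with a log2 fold change of -0.67 (SE 0.28). Epsti1 was at 69.3, 108 and 63.2 CPM against 49.7, 43.8 and 62.8 CPM, with a log2 fold change of -0.62 (SE 0.26). In both genes every Nsd2 Vil-KO library was below every Nsd2 f/f library. In the 4 libraries without Xist, 16 of this list were lower past the criterion, against 5.19% of all tested genes. Neither Nmi (log2 fold change -0.57, SE 0.29) nor Epsti1 (-0.65, SE 0.25) was among these 16.

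The 15 tested interferon-gamma GTPases, which are induced mainly by interferon gamma, had a median log2 fold change of -0.20 and none passed the criterion with all libraries. In the 4 libraries without Xist, 3 were lower past the criterion, against 5.19% of all tested genes. They were Gbp3 (-1.66, SE 0.40), Gbp7 (-0.39, SE 0.14) and Gbp9 (-1.29, SE 0.27). All 15 were lowest in a library with Xist, as the members were, and 7 were highest in Nsd2 f/f replicate 2. Their summed level was 1391, 1333 and 109 CPM in Nsd2 f/f and 876, 236 and 1246 CPM in Nsd2 Vil-KO libraries, so the sums of Nsd2 f/f replicates 1 and 2 were close, although 9 of the 15 genes were higher in replicate 2. Irgm1, a regulator of these GTPases, was at 217, 279 and 49.1 CPM against 148, 61.1 and 206 CPM. The sum over the 39 members was 3828, 7981 and 1459 CPM against 2599, 957 and 2900 CPM. Iigp1, a GTPase that attacks the vacuoles of intracellular parasites, was at 202, 175 and 0.162 CPM against 130, 32.7 and 225 CPM. The 15 genes of MHC class I presentation had a median log2 fold change of -0.03, and none passed the criterion with all libraries. In the 4 libraries without Xist the median was -0.23. H2-T23, 1 of the 15, was lower past the criterion there (-0.50, SE 0.16), against 5.19% of all tested genes. Of the 15 genes, 12 were highest in Nsd2 f/f replicate 2 and all were lowest in a library with Xist. H2-D1 and H2-K1, the classical class I heavy chains, had log2 fold changes of 0.21 (SE 0.42) and 0.12 (SE 0.42).

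Markers of other cell types also differed between libraries. Epithelial markers summed to between 13750 and 22400 CPM, and the 2 highest sums were those of the libraries with Xist. Lgals4 took the largest part of these 2 sums, at 7513 CPM in Nsd2 f/f replicate 3 and 9261 CPM in Nsd2 Vil-KO replicate 2. It was at most 4337 CPM elsewhere. The markers did not all follow the sum, as 3 of the 10 were lowest in a library with Xist. The 12 T cell and intraepithelial lymphocyte markers summed to between 16.8 and 46.0 CPM, with 16.8 and 21.0 CPM in the libraries with Xist, and the 7 B and plasma cell markers to between 6.10 and 50.8 CPM, with the lowest values in the same 2 libraries. The 11 macrophage and neutrophil markers summed to 931, 356 and 211 CPM in Nsd2 f/f and 325, 2349 and 219 CPM in Nsd2 Vil-KO libraries, with Ly6g, S100a8 and S100a9 taking most of the sum, and Adgre1, which defines macrophages, had 0 and 1 counts in the libraries with Xist. The median log2 fold change of these 11 markers was -1.16, with 8 negative, close in size to the members' median of -1.11. The order of libraries was not the same: 0 of the 11 were higher in Nsd2 f/f replicate 2 than in replicate 1. Nsd2 f/f replicate 2 was the highest library for 39 of 39 members. Lowest in a library with Xist were 10 of the 11 markers. None of these 11 markers passed the criterion with all 6 libraries. In the 4 libraries without Xist, 5 of them were lower past it, against 5.19% of all tested genes. For plasmacytoid dendritic cells, a main source of type I interferon, the list summed to between 550 and 1154 CPM, mostly from Klk1, and Siglech, its defining marker, had between 0 and 14 counts. Klk1, a kallikrein, was lower past the criterion, at 748, 607 and 1039 CPM in Nsd2 f/f and 333, 581 and 398 CPM in Nsd2 Vil-KO libraries, with a log2 fold change of -0.87 (SE 0.32). It was the only 1 of the 5 tested genes of this list with a negative log2 fold change, and the list's median was 0.24. Stroma and endothelium markers summed to 271, 71.4 and 11.6 CPM against 80.4, 13.0 and 26.7 CPM, and the 9 tested had a median log2 fold change of -1.35, with 8 negative. Vwf, which encodes von Willebrand factor of endothelium, was higher past the criterion, at 2.58, 2.90 and 1.86 CPM against 3.61, 4.72 and 6.44 CPM, with a log2 fold change of 1.00 (SE 0.40). The part of these cell types in the level of the 39 genes was not tested.

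**Figure D4:**
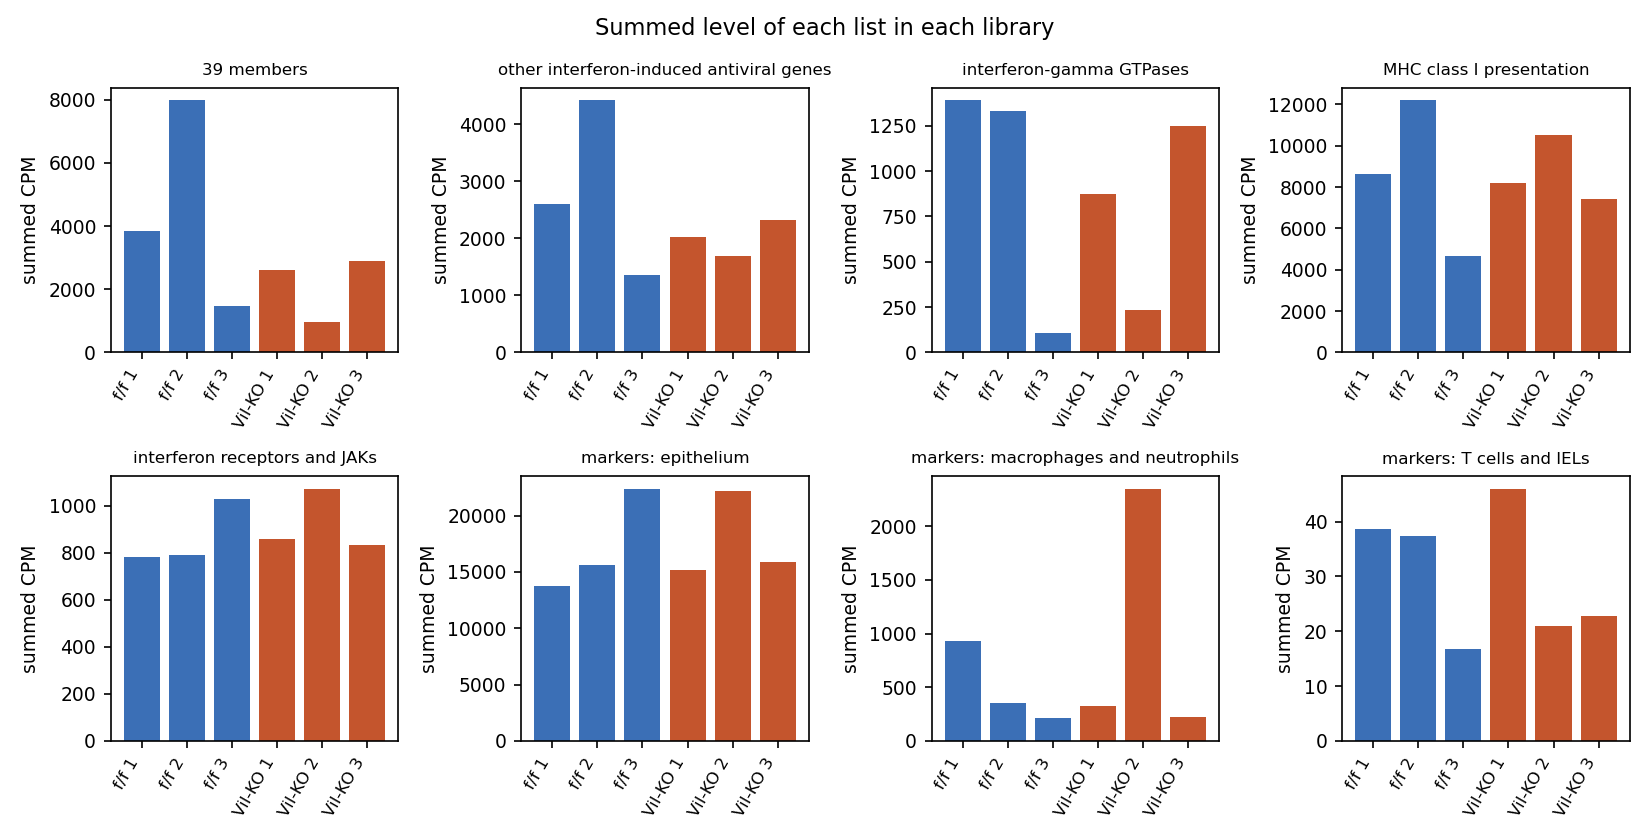
Summed CPM of 8 gene lists in each library (bars, 1 per library, Nsd2 f/f in blue and Nsd2 Vil-KO in orange). The 39 members sum to 7981 CPM in Nsd2 f/f replicate 2 and to 957 CPM in Nsd2 Vil-KO replicate 2, while the interferon-gamma GTPases are about level in Nsd2 f/f replicates 1 and 2.

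Genes outside the group with the pattern most like it were ranked over the 6 libraries by Pearson's r with the mean of the members' standardised log2(CPM + 0.5). Of 4253 candidates, which averaged 1 CPM or more and had an SD of 0.5 or more, 23 had an r above 0.95. The 10 highest were Sp100 (r = 0.992), Phf11a, Apol9b, Pot1b, H2-T24, AW011738, Oas1b, Parp11, Mill2 and Rnf213 (r = 0.978). The members' own r with this mean had a median of 0.95 and a minimum of 0.719. These 6 points share their libraries with the comparison of genotypes, and r is given as a description. Sp100, a nuclear body protein, was at 58.3, 118 and 19.1 CPM in Nsd2 f/f and at 31.2, 13.5 and 30.7 CPM in Nsd2 Vil-KO libraries.

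The members with and without the response element in the promoter window had similar log2 fold changes. The 15 genes with a match had a median of -1.20 and a range from -3.28 to -0.26. The 14 genes without one had a median of -1.07 and a range from -2.69 to -0.10.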

How the data were processed

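RNA-seq of colon IECs from DSS-treated mice was analysed in 6 libraries, grouped by the labels. The labels name the control libraries only as WT, and the genotype Nsd2 f/f for them is taken from the study's text. The values that the authors deposited are raw read counts, 1 row per Ensembl gene, neither normalised nor filtered. Alignment was to GRCm38 with HISAT2. Which program counted the reads, and whether it was strand-specific, is not given in the sources used here. The library kit in the labels is not the one in the methods. All 6 sample columns were used.

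Counts were fitted in R 4.3.3 with edgeR 4.0.16 (filterByExpr, TMM, quasi-likelihood test with robust estimation, Benjamini-Hochberg adjustment over 14650 genes). The SE of a log2 fold change was taken as its size divided by the square root of the F statistic. The screening criterion was a fold change above 1.2 and p below 0.05. Floors cover counting error only, while the SE also includes the estimated spread between libraries. Coordinates and exon lengths came from GENCODE vM21. The fit was tested on simulated counts.

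Members, lists and the rule for named genes were chosen with earlier results of these data known. The rule took all members by class, with values per library for those that led a class by mean CPM or by change and for Isg15, Ifit1 and Oas2, allowed list genes past the criterion or among the 2 highest of a list in CPM, and took the 10 genes most like the members. 1 list of pathway genes is not reported here. The study's own run on FPKM was replaced by a count test. Alternatives were DESeq2 1.42.0, limma-voom (limma 3.58.1), other normalisations, filters and fold change limits, a replicate block, each library left out, Xist as a covariate, the 4 libraries without Xist, and mitochondrial genes left out.

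The version of the quasi-likelihood fit was compared after the members' values had been seen, because a count over all genes differed from an earlier count. The package default is reported throughout. A fit with the legacy option off, one without an abundance trend, and library sizes over all listed genes were the versions tried, and library sizes over the tested genes were adopted at that point.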

Additional observations from a re-analysis of the deposited data

Results flagged for a closer look

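The genotype effect on Trim25 differed with the presence of Xist transcripts in the library, with an adjusted p of 0.0391 for the interaction in edgeR's quasi-likelihood test. The log2 fold change of Trim25 was -0.49 (SE 0.14) in the 4 libraries without Xist, and the ratio of the 2 libraries with Xist was 0.45 on the log2 scale. Each genotype holds 1 library with Xist, and the interaction had an adjusted p below 0.05 in 2115 of 14650 tested genes.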

How the results depend on the processing

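The count of members lower and past the criterion, 7 in the reported fit, was 2 without a filter on low counts, 4 with library size only, 14 with DESeq2, 24 with limma-voom and quality weights, 22 with the covariate Xist and 13 when the pair with Xist was left out. It ranged from 0 to 26 with each library left out. Among the versions of the quasi-likelihood fit tried after values were seen, it was 8 with the legacy option off (482 genes past the criterion over all tested genes, against 434), which added Rsad2, 7 without an abundance trend (436 genes) and 7 with library sizes over all listed genes (434 genes). The replicate numbers are not known to pair the mice. Same-numbered libraries deviated with correlations of 0.287, -0.376 and -0.174, which cannot show whether mice were paired. Over all tested genes, 684 passed without a filter, 1440 with limma-voom, 1082 with the Xist covariate, 267 with the replicate block and 1636 in the 4 libraries. With the replicate block 0 members passed, and the median log2 fold change was -0.84. No member had an adjusted p below 0.05 under any of these fits. The median log2 fold change ranged from -1.60 to -0.47 with each library left out and did not change sign under any alternative. The count of members without overlap, 1 in the reported values, was 0 with library size only and 35 in the 4 libraries without Xist, and ranged from 1 to 35 with each library left out.

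Of 777 values of single members under the alternatives, 10 had the other sign, all with a library left out. With each library left out the log2 fold changes ranged from -1.56 to 0.013 for Dhx58, -0.60 to 0.22 for Eif2ak2, -1.19 to 0.030 for Zbp1, -1.58 to 0.13 for Usp18, -0.55 to 0.023 for Trim25, -0.60 to 0.092 for Irf9, -1.19 to 0.020 for Stat2, -0.93 to 0.00114 for Parp14 and -0.49 to 0.35 for Dtx3l. The positive values came from the fit without Nsd2 f/f replicate 2 and, for Dtx3l, also from that without Nsd2 Vil-KO replicate 2 (0.24). List medians given in the report that moved across 0 by more than the spread between libraries were 0.31 for interferon ligands without Nsd2 f/f replicate 1, and 0.28 for sensing adaptors and kinases and 0.36 for MHC class I presentation without Nsd2 f/f replicate 2. The cause was not tested.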
